A study of Mus musculus with 6 samples.

Results

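The nuclei described here are 611 of the 5786 nuclei kept from a lumbar dorsal root ganglion library, a share of 10.6% (exact 95% interval 9.78% to 11.4%), chosen as mesenchymal by which genes each nucleus contained. A nucleus was kept with at least 500 unique molecular identifiers (UMIs, each standing for 1 captured RNA molecule), at least 300 genes and a mitochondrial share of at most 5%. It was chosen when at least 2 of 6 genes were detected, Pdgfra, Lum, Col1a2, Col3a1, Scara5 and Dkk2. It could hold at most 1 of the neuronal genes Snap25, Syt1, Rbfox3 and Elavl3 and no UMI of Sox10, Cdh5 or Csf1r, which mark glia, endothelium and macrophages. Measured values therefore chose the nuclei, and all of the values below are descriptions without a test.

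The ganglion library pooled C57BL/6 mice at postnatal day 14 (P14), 4 males and 4 females, with no treatment or allele named. Its sample is labelled as nuclear RNA of neurons but titled as cells, and the labels' protocol describes enzyme dissociation and removal of dead cells. The same study holds 5 sciatic nerve libraries of whole cells, pooled from 22, 21, 18, 15 and 13 C57BL/6 animals at P0, P7, P14, P28 and P60. Every tissue and age has 1 library, so no difference has a replicate check, nuclei are not replicates, and intervals cover counting error only. The study asked how small axons pass from contact with each other to contact with glia, and sampled ganglia for receptors of the secreted guidance protein Sema3b on sensory neurons.

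A sensory ganglion is wrapped in a connective tissue capsule that continues as the epineurium and perineurium of the nerve and, along the root, as the meninges of the spinal cord. Fibroblasts of these layers secrete collagens, elastic fibre proteins and proteoglycans. Perineurial and arachnoid cells also form barriers, sealed by claudins and supplied by solute carriers, between nervous tissue and the fluid outside it.

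The 250 bases before the annotated start of 5 genes are shown, because 2 of these genes chose most of the nuclei and 1 gene each stands for the meningeal, perineurial and outer fibroblast subsets described below. The sequences are from RefSeq on GRCm38.p6, 5′ to 3′ on the gene's strand, with capitals marking 3 motifs read on either strand, the TATA box letters TATAAA, the box CCAAT and the GC box letters GGGCGG. No 2 of the marked matches overlap.
Col1a2 at chr6:4505368-4505617, plus strand: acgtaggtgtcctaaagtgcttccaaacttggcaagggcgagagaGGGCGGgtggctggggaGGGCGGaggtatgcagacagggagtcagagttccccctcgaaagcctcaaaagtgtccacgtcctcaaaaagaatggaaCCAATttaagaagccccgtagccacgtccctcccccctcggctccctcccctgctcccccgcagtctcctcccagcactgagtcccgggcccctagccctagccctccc
Col3a1 at chr1:45311288-45311537, plus strand: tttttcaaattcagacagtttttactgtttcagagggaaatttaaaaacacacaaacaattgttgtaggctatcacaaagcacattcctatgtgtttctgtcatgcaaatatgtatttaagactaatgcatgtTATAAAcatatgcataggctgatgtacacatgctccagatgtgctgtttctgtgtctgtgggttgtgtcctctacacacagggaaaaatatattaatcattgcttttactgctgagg
Ptgds at chr2:25469750-25469999, minus strand: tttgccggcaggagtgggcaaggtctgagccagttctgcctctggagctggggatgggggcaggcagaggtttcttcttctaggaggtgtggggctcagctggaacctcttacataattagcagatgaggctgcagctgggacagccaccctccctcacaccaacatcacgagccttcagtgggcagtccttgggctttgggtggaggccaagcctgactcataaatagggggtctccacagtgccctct
Cldn1 at chr16:26371840-26372089, minus strand: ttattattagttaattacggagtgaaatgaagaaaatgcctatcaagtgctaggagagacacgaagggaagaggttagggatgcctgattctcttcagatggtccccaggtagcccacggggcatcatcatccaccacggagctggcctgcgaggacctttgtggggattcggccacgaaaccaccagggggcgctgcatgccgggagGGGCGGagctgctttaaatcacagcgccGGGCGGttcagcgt
Pi16 at chr17:29318632-29318881, plus strand: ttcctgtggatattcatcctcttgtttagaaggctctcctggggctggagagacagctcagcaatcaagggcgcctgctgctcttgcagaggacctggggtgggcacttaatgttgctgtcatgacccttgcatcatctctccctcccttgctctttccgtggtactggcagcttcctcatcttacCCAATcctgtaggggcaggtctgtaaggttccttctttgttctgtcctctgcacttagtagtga
TATAAA occurs in 12.4% of all 32851 promoter windows of this length, CCAAT in 33.8% and GGGCGG in 32.7%. The Col1a2 window, upstream of the gene of the type I collagen alpha 2 chain, holds 1 CCAAT and 2 GGGCGG, and the Col3a1 window, of type III collagen, holds 1 TATAAA. The Cldn1 window holds 2 GGGCGG and the Pi16 window 1 CCAAT. None of the 3 motifs is in the Ptgds window.

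The chosen nuclei had a median of 2136 UMIs and held 1463410 UMIs in all, against a median of 1999 UMIs and 19039392 UMIs in the 5175 other kept nuclei. Levels are given as CPM, the UMIs of a gene per 1000000 UMIs summed over the nuclei of a class. Reference classes were cut by detection from the same library: 712 neuronal nuclei, 1577 Sox10 nuclei and 107 Cdh5 nuclei, with median depths of 10392, 2053 and 1885 UMIs. Of the chosen barcodes, 6 also occur among the kept barcodes of a nerve library. A summed level cannot tell fewer nuclei with a transcript from less of it per nucleus.

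Collagen genes chose most of the nuclei. Col3a1 was detected in 572 of 611 nuclei (93.6%) and Col1a2 in 535 (87.6%). Scara5, a ferritin receptor of outer connective tissue fibroblasts, was detected in 214 (35.0%). Pdgfra, the receptor of platelet-derived growth factor A, was detected in 195 (31.9%). Dkk2, a secreted Wnt modulator, was detected in 89 (14.6%), and Lum, the collagen-binding proteoglycan lumican, in 65 (10.6%). Exactly 2 rule genes were detected in 348 nuclei, 3 in 128, 4 in 88, 5 in 44 and all 6 in 3. The pair Col1a2 and Col3a1, with none of the other 4 genes, accounted for 265 nuclei (43.4%), and 346 nuclei held at least 1 of the other 4.

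**Figure D1:**
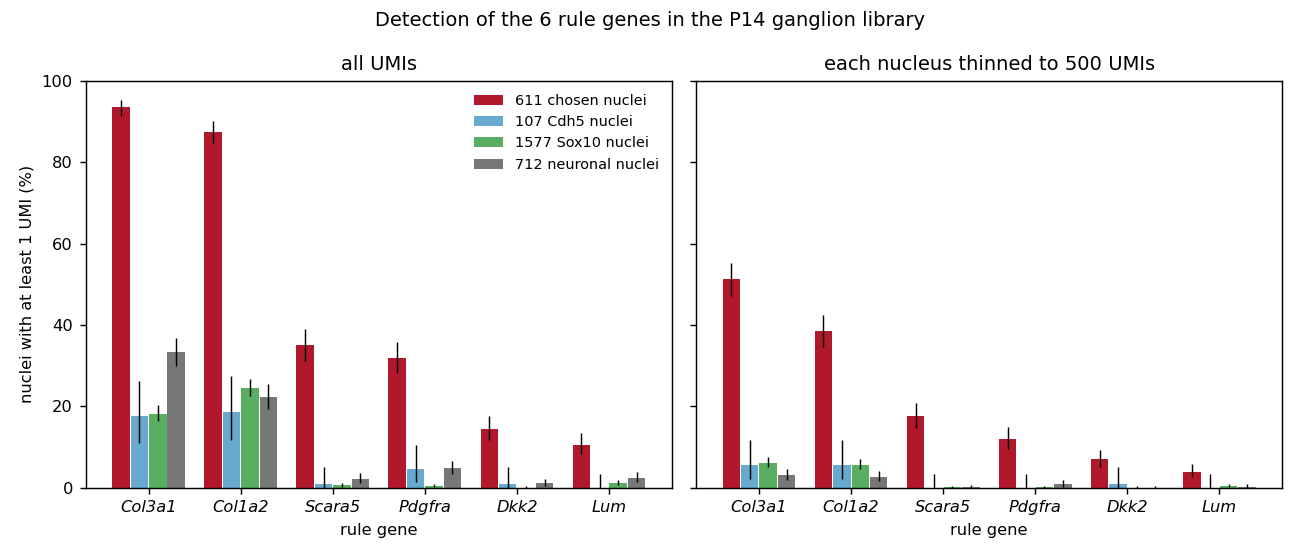
Share of nuclei with at least 1 UMI of each rule gene (vertical axis, %) in the chosen, Cdh5, Sox10 and neuronal nuclei, with all UMIs on the left and after thinning each nucleus to 500 UMIs on the right; error bars are exact 95% intervals. The collagen genes reach 18.3% to 33.3% in Sox10 and neuronal nuclei before thinning and at most 6.21% after it, while Scara5 stays at 0.127% and 0.140% there after thinning. Sox10 and Cdh5 nuclei were cut to hold at most 1 rule gene.

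Detection of the collagen genes was not exclusive to the chosen nuclei, as the plot of detection shares shows. Col1a2 was detected in 24.6% of Sox10 nuclei and 22.3% of the deeper neuronal nuclei. After thinning each nucleus to 500 UMIs, Col1a2 remained in 38.5% of the chosen nuclei, against 5.71% of Sox10 and 2.67% of neuronal nuclei. Thinned Col3a1 detection was 51.2% in the chosen nuclei, 6.21% in Sox10 nuclei and 3.09% in neuronal nuclei. Scara5, with 17.7% of the chosen nuclei after thinning, was in 0.127% of Sox10 and 0.140% of neuronal nuclei. All 3 are rule genes, so these shares describe the selection.

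The edges of the rule were as follows. The 348 nuclei just inside it held exactly 2 rule genes, and the 806 just outside met every other condition with exactly 1. Those 806 nuclei were shallower, with a median of 1420 UMIs, and had 409 CPM of Col3a1, against 1932 CPM in the chosen nuclei and 153 CPM in all others. A further 519 nuclei with at least 2 rule genes were turned away by the markers of other cell types, and they count among the other nuclei below. Of these, 119 were turned away by neuronal genes alone, 253 by Sox10 alone and 88 by Cdh5 alone.

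The nuclei turned away by Cdh5 alone held more meningeal RNA than the chosen nuclei did. Genes of a list of 26 meningeal genes summed to 17556 CPM in these 88 nuclei, against 6165 CPM in the chosen nuclei. A list of 12 endothelial genes summed to 548 CPM in them, against 172 CPM in the chosen nuclei and 1966 CPM in all 242 Cdh5 nuclei. The endothelial adhesion gene Pecam1 was detected in 6 of the 88 nuclei and the transporter gene Slc47a1 in 21 (23.9%). Ptgds, which encodes prostaglandin D synthase, was detected in 38 of them and stood at 8598 CPM, against 1183 CPM in the chosen nuclei. Some nuclei with a meningeal profile are therefore outside the 611. The 253 nuclei turned away by Sox10 alone had 11314 CPM of satellite glia genes, against 5288 CPM in the chosen nuclei, and 5553 CPM of fibrillar matrix genes, against 11237 CPM.

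The chosen nuclei were not 1 kind. Grouping them on genes outside all lists used here gave 11 groups, each called below after 1 of its 10 leading genes, those with the highest ratio over the other chosen nuclei, which describe a group and are not results. For each group the summed level of marker lists of 6 other cell types found in or around the ganglion (mural, endothelial, macrophage, neuronal, satellite glia and Schwann) was set against the level over all chosen nuclei. In 5 groups with 219 nuclei at least 1 list was at least 2 times that level, a limit set after the groups were seen, and these groups are set aside in what follows. The Prx group (17 nuclei) stood at 20.2 times for Schwann cell genes. The Myh11 group (18 nuclei) stood at 13.7 times for mural cell genes, with Acta2, smooth muscle actin, at 1153 CPM. The Adgb group (29 nuclei) stood at 3.65 times for Schwann cell genes.

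The Cntn5 group (56 nuclei) was shallow, with a median of 1038 UMIs, and stood at 6.27 times for macrophage, 4.44 times for endothelial, 3.86 times for blood and 2.63 times for neuronal genes. The Shank2 group (99 nuclei) stood at 2.05 times for satellite glia genes. The raised markers of other cell types go against the mesenchymal label in these 5 groups. As a description of the selection, 57 of their 219 nuclei held at least 1 of the 4 rule genes other than the collagens, against 289 of the 392 nuclei of the remaining 6 groups. Seen from the other side, 162 of the 265 nuclei chosen by the collagen pair alone (61.1%) were in these 5 groups. The part of these marker genes in other values of the 5 groups was not tested. The remaining 6 groups are called the matrix groups: Fgf10 (129 nuclei), Ccn3 (78), Tbx18 (66), Lmo7 (54), Slc47a2 (44) and Atp13a5 (21). The name means only that none of the 6 lists was raised. Fibrillar matrix genes, rule genes included, summed to 2916 CPM in the Atp13a5 group, the lowest of any group. They summed to 8247 to 17433 CPM in the other matrix groups and 4647 to 10419 CPM in the groups set aside. Of 4 further lists, not used for the limit, some were raised in the matrix groups as well. Cartilage and bone genes stood at 3.23 times in the Ccn3 group (657 CPM), mostly from Runx2, with 93 UMIs, and Bglap, with 35. Much of this came from few nuclei. At the coarser grouping given below, 3 Ccn3 nuclei joined the 56 Cntn5 nuclei. That joint group held 1477 CPM of these genes and 35 Bglap UMIs, against 109 CPM in the Cntn5 group before. The coarser group with 71 Ccn3 nuclei held 156 CPM, 0.764 times the level over all chosen nuclei. Adipocyte genes stood at 3.30 times in the Tbx18 (83.5 CPM) and 2.70 times in the Fgf10 group (68.2 CPM), mostly from the lipase gene Lpl, with Adipoq at 0. Skeletal muscle genes stood at 2.07 times in the Lmo7 group (26.9 CPM), which is no more than the level that a count of 0 allows there. With all 10 lists, 65 nuclei would be in groups without a raised list, and that value alone leaves out the Lmo7 group. At a coarser grouping with 10 groups, 71 of the 78 Ccn3 nuclei and all 44 Slc47a2 nuclei formed 1 group, so differences between these groups rest on the finer grouping. Comparisons between groups below are among these 6 unless others are named. Col12a1 in the Ccn3 group, Rspo3 in the Slc47a2 group, Ntng1, Itgb4 and Cldn1 in the Lmo7 group and Ptgds, Rbp4 and Cyp26b1 in the Atp13a5 group are among the genes that lead those groups. They took no part in forming the groups, and their levels there are given as a description. The Atp13a5 group lay just under the limit, at 1.92 times for satellite glia genes. These genes summed to 10159 CPM there, of which Apoe gave 2322 CPM. Their sum was 10854 CPM in the Shank2 group, which was set aside, and 11697.5 CPM in Sox10 nuclei.

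Across all genes, the chosen nuclei differed from the other ganglion nuclei in a minority of transcripts. Of 16258 genes with at least 50 UMIs over both classes, 575 (3.54%) were at least 4 times higher in the chosen nuclei and 1084 (6.67%) were at most 1/4. The median log2 ratio was 0.13, and scaling by the median of gene ratios shifts all log2 ratios by -0.16. With the 392 nuclei of the matrix groups in place of all 611, 752 of 16163 genes (4.65%) were at least 4 times higher and 1492 (9.23%) at most 1/4. A ratio is the CPM of the chosen nuclei over that of the other nuclei, values in parentheses after a ratio or a level are exact 95% intervals, and a gene counts as tested from 50 UMIs. The rule used this contrast, so the counts of list members that follow are descriptions, set beside those percentages only for scale.

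**Figure D2:**
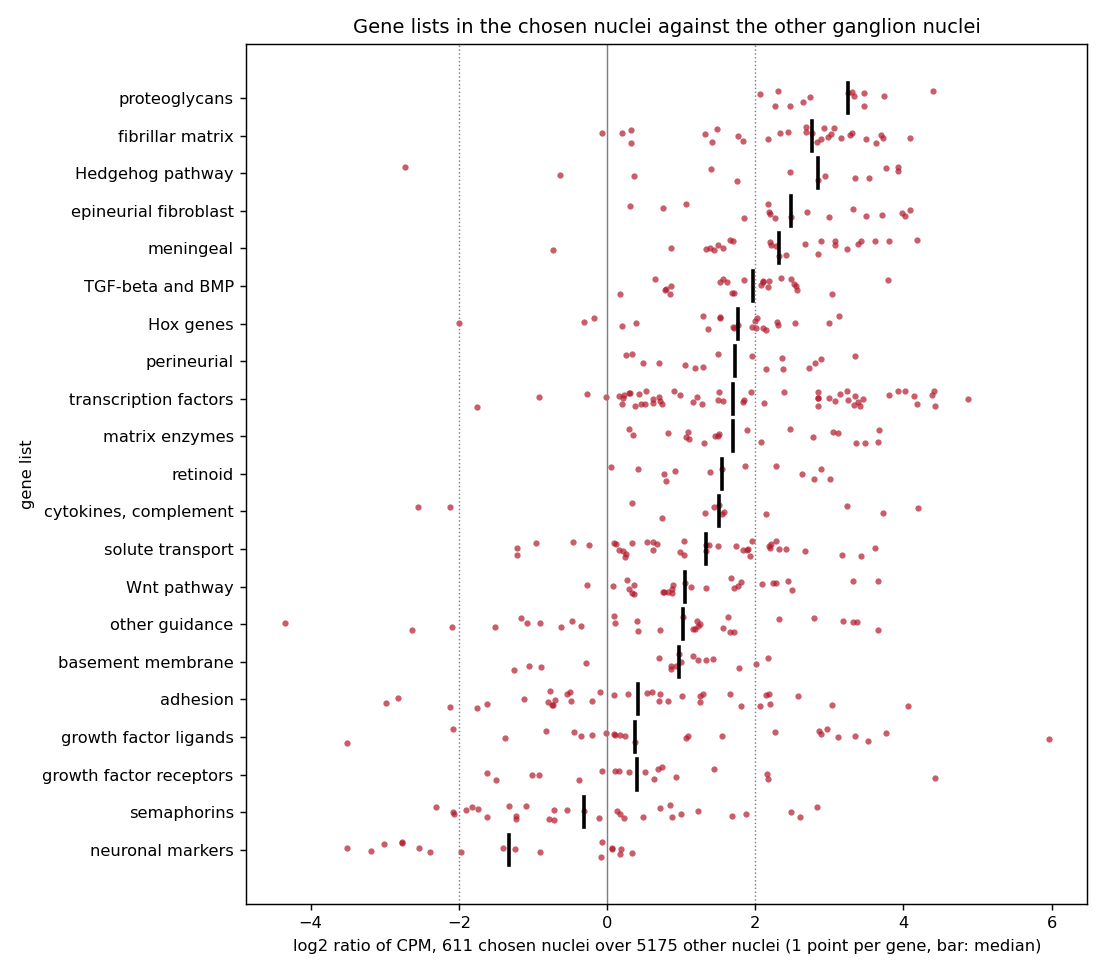
Log2 ratio of CPM in the 611 chosen over the 5175 other ganglion nuclei (horizontal axis) for the tested genes of 21 lists (vertical axis); each point is a gene, bars are list medians and dotted lines mark 4 times higher and 1/4. Proteoglycan genes have the highest median, 3.26, and neuronal markers, the lowest row, have a median of -1.32.

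Genes of fibrils and elastic fibres stood high in the chosen nuclei. Of 29 tested fibrillar matrix genes other than the rule genes, 20 were at least 4 times higher and none at most 1/4, with a median log2 ratio of 2.77. Fbn1, the microfibril protein fibrillin-1, stood at 964 CPM (915 to 1016) in the chosen nuclei and 56.7 CPM (53.3 to 60.2) in the other nuclei, a ratio of 17.0 (15.7 to 18.4). Eln, which encodes elastin, stood at 494 CPM in the chosen nuclei and 37.2 CPM in the other nuclei, a ratio of 13.3 (11.9 to 14.7). Col12a1, a fibril-associated collagen, reached 419.6 CPM against 33.9 CPM, and Col1a1, the alpha 1 chain of type I collagen, 698 CPM against 71.7 CPM. Fbln2, which encodes a fibulin, was near 1, at a ratio of 1.15 (1.02 to 1.29).

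Fibrils and elastic fibres were spread unevenly over the groups. Fbn1 was highest in the Fgf10 group, at 3236 CPM (3038 to 3443, 110 of 129 nuclei), and lowest among the matrix groups in the Atp13a5 group, at 66.0 CPM (21.4 to 154, 5 of 21 nuclei). Eln stood at 1802 CPM (34 of 44 nuclei) in the Slc47a2 group and 854 CPM (48 of 78 nuclei) in the Ccn3 group, with no UMI in the Atp13a5 group, where a count of 0 allows 39.6 CPM. Col12a1 followed the same 2 groups, with 1520.4 CPM (52 of 78 nuclei) in the Ccn3 and 1493 CPM (40 of 44 nuclei) in the Slc47a2 group, against 27.8 CPM in the Tbx18 group. Col1a1 was more even, from 211 CPM (10 of 21 nuclei) in the Atp13a5 group to 1246 CPM (51 of 66 nuclei) in the Tbx18 group.

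All 13 tested proteoglycan genes were at least 4 times higher, with a median log2 ratio of 3.26. Dcn, which encodes decorin, a small proteoglycan that binds collagen fibrils, stood at 1027 CPM (976 to 1080.3) in the chosen nuclei and 93.1 CPM (88.8 to 97.5) in the other nuclei. Gpc6, a membrane-anchored glypican, was the most abundant, at 3993 CPM in the chosen nuclei and 807 CPM in the other nuclei. Its Sox10 and neuronal levels were 1036 and 298 CPM. Dcn was highest in the Tbx18 (2985 CPM, 61 of 66 nuclei) and Lmo7 (2399.7 CPM, 51 of 54 nuclei) groups and low in the Slc47a2 group (144 CPM, 12 of 44 nuclei), the reverse of Gpc6 in the Tbx18 (1266 CPM) and Slc47a2 (7698 CPM) groups.

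Of 20 tested matrix enzyme genes, 9 were at least 4 times higher. Adamts12, a secreted metalloproteinase, stood at 419 CPM in the chosen nuclei and 32.8 CPM in the other nuclei, and Lox, which crosslinks collagen and elastin, at 56.7 CPM against 5.09 CPM. Timp3, a metalloproteinase inhibitor, stood at 306 CPM in the chosen nuclei and 241 CPM in the other nuclei. Basement membrane genes stood out less: 2 of 17 were at least 4 times higher, with a median log2 ratio of 0.97. Lama2, the laminin alpha 2 chain, stood at 1693 CPM in the chosen nuclei and 674 CPM in the other nuclei, and within the chosen nuclei it peaked at 5991 CPM (5598 to 6405, 62 of 66 nuclei) in the Tbx18 group.

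Genes of the layers around ganglion and nerve were mixed within the chosen nuclei. Of 25 tested meningeal genes, 16 were at least 4 times higher (median log2 ratio 2.33). The counts were 13 of 17 for epineurial and outer fibroblast genes (2.49), 7 of 16 for perineurial genes (1.73) and 3 of 8 for endoneurial fibroblast genes (1.38). None of these lists had a tested gene at 1/4 or less. Slc47a1, a multidrug and toxin extrusion transporter, stood at 437 CPM (403 to 472) in the chosen nuclei and 35.5 CPM (32.9 to 38.3) in the other nuclei. Slc4a10, a bicarbonate transporter, stood at 886 CPM in the chosen nuclei and 82.4 CPM in the other nuclei, and Pi16, a secreted peptidase inhibitor, at 175 CPM against 11.1 CPM. The tight junction genes Tjp1 and Ocln had ratios of 1.19 (1.07 to 1.33) and 2.07 (1.28 to 3.19).

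Genes of secreted signals differed from group to group. Of 25 tested growth factor ligands, 9 were at least 4 times higher and 2 at most 1/4. Fgf10, a fibroblast growth factor, had the highest ratio of any gene with at least 30 UMIs in the chosen nuclei, 62.6 (36.2 to 115), at 52.6 CPM against 0.840 CPM. Where no neuronal rule gene was allowed the ratio was 22.6, below those of Gm43150 at 26.3, Nrk at 24.0 and Dchs2 at 23.3. In that setting the 166 chosen nuclei with 1 neuronal gene counted among the other nuclei, so their UMIs moved to the other side of the ratio. The part of this move in the lower ratio was not tested. Fgf10 is also the leading gene of the group named after it. Igf1, insulin-like growth factor 1, stood at 128 CPM against 12.5 CPM, with 334 CPM (28 of 66 nuclei) in the Tbx18 group, 289 CPM (38 of 129 nuclei) in the Fgf10 group and no UMI in the Lmo7 group. The 2 ligands at 1/4 or less were Bdnf, brain-derived neurotrophic factor (4.78 against 20.2 CPM), and Nrg1, neuregulin 1 (60.8 against 691 CPM).

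Among 18 tested growth factor receptors, 3 were at least 4 times higher beside the rule gene Pdgfra: Egfr, Met and Igf2r. Egfr, the receptor of epidermal growth factor, stood at 845 CPM (798 to 893) in the chosen nuclei and 39.1 CPM (36.4 to 42.0) in the other nuclei, a ratio of 21.6 (19.7 to 23.7). It was present in all 6 matrix groups, from 475 CPM (28 of 54 nuclei) in the Lmo7 group to 1454 CPM (51 of 66 nuclei) in the Tbx18 group. Ntrk3, the receptor of neurotrophin 3, stood at 478 CPM in the chosen nuclei and 176 CPM in the other nuclei.

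Wnt and bone morphogenetic protein (BMP) pathway genes also differed from group to group, in patterns of their own. Of 27 tested Wnt pathway genes, 7 were at least 4 times higher (median log2 ratio 1.05). Rspo2, which amplifies Wnt signalling, stood at 448 CPM in the chosen nuclei and 92.3 CPM in the other nuclei, with 1405 CPM (66 of 129 nuclei) in the Fgf10 group, 976 CPM (9 of 21 nuclei) in the Atp13a5 group and no UMI in the Lmo7 group. Its relative Rspo3 was found mostly in the Slc47a2 group, at 268 CPM (191 to 367, 18 of 44 nuclei). The rule gene Dkk2 stood at 1230.0 CPM (46 of 129 nuclei) in the Fgf10 and 718 CPM (32 of 78 nuclei) in the Ccn3 group, against 8.95 CPM (1 of 54 nuclei) in the Lmo7 group. Of 24 tested transforming growth factor beta and BMP genes, 12 were at least 4 times higher. Bmp6 stood at 1148 CPM (919 to 1416, 17 of 21 nuclei) in the Atp13a5 group and 206 CPM in the Slc47a2 group. Bmp4 was instead highest in the Slc47a2 group, at 413 CPM (315 to 531, 27 of 44 nuclei), and stood at 26.4 CPM in the Atp13a5 group. Bmp7 reached 369 CPM (12 of 21 nuclei) in the Atp13a5 group and at most 41.8 CPM in the other matrix groups.

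Hedgehog pathway genes had a median log2 ratio of 2.85, with 8 of 13 at least 4 times higher and 1 at most 1/4. The co-receptor Gas1 stood at 183 CPM in the chosen nuclei and 12.1 CPM in the other nuclei and the transcription factor Gli2 at 131 CPM against 8.61 CPM. The ligand Dhh, made by Schwann cells, had a ratio of 0.642 (0.429 to 0.926), and Shh had 1 UMI in the chosen nuclei. Ptch1, the Hedgehog receptor and itself a transcriptional target, stood at 1657 CPM (1426 to 1913, 39 of 54 nuclei) in the Lmo7 group and 946 CPM (794 to 1119, 40 of 66 nuclei) in the Tbx18 group, against 34.4 to 66.0 CPM in the other 4 matrix groups. Gli1, a further target, followed the same order, with 242 CPM (19 of 54 nuclei) in the Lmo7 and 223 CPM (24 of 66 nuclei) in the Tbx18 group and at most 70.4 CPM in the other 4. Hhip, a Hedgehog-binding inhibitor, was instead highest in the Fgf10 (256 CPM, 15 of 129 nuclei) and Ccn3 (197 CPM, 16 of 78 nuclei) groups and had no UMI in the Tbx18 group.

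Semaphorins and their receptors steer growing axons. Of 31 tested semaphorins, neuropilins and plexins, 3 were at least 4 times higher and 3 at most 1/4, with a median log2 ratio of -0.31. In the matrix groups 3 were at least 4 times higher and 10 at most 1/4, with a median of -0.96. Sema3b itself stood at 29.4 CPM (21.3 to 39.6) in the chosen nuclei and 31.7 CPM (29.2 to 34.4) in the other nuclei, and at 69.7 CPM in Sox10 nuclei. The neuropilin receptor genes Nrp1 and Nrp2 stood at 390.2 and 146 CPM in the chosen nuclei, against 166 and 80.9 CPM. Nrp2 was highest in the Lmo7 (448 CPM, 29 of 54 nuclei) and Tbx18 (424 CPM, 28 of 66 nuclei) groups and lowest in the Fgf10 group (9.74 CPM, 3 of 129 nuclei). The 3 higher genes were Sema3a, Sema3c and Sema3d. Sema3c was found in 82 of 129 nuclei of the Fgf10 group (1542 CPM), and Sema3d in 27 of 78 of the Ccn3 group (526 CPM) and 26 of 54 of the Lmo7 group (429.8 CPM).

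Of 31 other tested guidance genes, 6 were at least 4 times higher and 3 at most 1/4. Slit2, a repellent ligand of Robo receptors, stood at 863 CPM (816 to 912) in the chosen nuclei and 94.8 CPM (90.4 to 99.2) in the other nuclei. It reached 4478 CPM (4141 to 4836, 39 of 44 nuclei) in the Slc47a2 group and had no UMI in the Atp13a5 group, which instead had the highest level of the receptor gene Robo1, 2797 CPM (2433 to 3199.9, 21 of 21 nuclei). Ntng1, netrin-G1, stood at 4298 CPM (3922 to 4700.3, 51 of 54 nuclei) in the Lmo7 group and at most 186 CPM in the other matrix groups. Ntn4, a laminin-related netrin, was highest in the Tbx18 group, at 369 CPM (276 to 482, 25 of 66 nuclei).

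Transcription factors of mesenchyme stood high in the chosen nuclei. Of 56 tested, 25 were at least 4 times higher and none at most 1/4. Prrx1, a homeobox factor of limb and connective tissue mesenchyme, stood at 612 CPM (573 to 654) in the chosen nuclei and 28.6 CPM (26.3 to 31.1) in the other nuclei, a ratio of 21.4 (19.2 to 23.8). Twist2, a basic helix-loop-helix factor, had a ratio of 29.3 (15.8 to 56.5) on 36 UMIs, and 14.8 where no neuronal rule gene was allowed. The nuclei left out in that setting counted among the other nuclei. Tbx15 was highest in the Ccn3 group (699 CPM, 48 of 78 nuclei), next to 647 CPM (29 of 44 nuclei) in the Slc47a2 group. Ebf2 stood at 3243 CPM (62 of 66 nuclei) in the Tbx18 group and 2399.7 CPM (52 of 54 nuclei) in the Lmo7 group, against 75.7 CPM (6 of 44 nuclei) in the Slc47a2 group. Foxd1, a forkhead factor, was present in all 6 matrix groups, from 90.5 CPM (12 of 66 nuclei) in the Tbx18 to 392 CPM (25 of 44 nuclei) in the Slc47a2 group. Zic1, a zinc finger factor, likewise ranged from 89.5 CPM (9 of 54 nuclei) in the Lmo7 to 419.6 CPM (28 of 44 nuclei) in the Slc47a2 group.

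Hox genes, which record position along the body axis, were higher in part: 9 of 23 tested were at least 4 times higher and none at most 1/4. Hoxc6 stood at 209 CPM (186 to 234) in the chosen nuclei and 51.4 CPM (48.2 to 54.7) in the other nuclei. Hoxa9 stood at 115 CPM in the chosen nuclei and 28.6 CPM in the other nuclei, and Hoxc10 at 24.6 CPM against 4.25 CPM. Hoxc6 was detected in every matrix group, from 160.0 CPM in the Tbx18 group to 495 CPM in the Slc47a2 group.

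Of 39 tested solute transport genes, 10 were at least 4 times higher and none at most 1/4. Retinoid genes gave 5 of 13 and cytokine and complement genes 4 of 13, with 2 of the cytokine list at most 1/4. Il33, an alarmin cytokine, stood at 34.9 CPM (25.9 to 45.8) in the chosen nuclei and 1.89 CPM (1.32 to 2.62) in the other nuclei. Adhesion genes gave 7 of 36 higher and 3 lower, but 8 higher and 11 lower in the matrix groups, and Itgbl1, an integrin-related secreted protein, led them at 1260.1 CPM in the chosen nuclei and 75.7 CPM in the other nuclei. Immediate early genes, which rise within minutes of stimulation or dissociation, gave 4 of 18, and Fos stood at 226 CPM in the chosen nuclei and 90.8 CPM in the other nuclei. None of 14 tested replication and mitosis genes was past the limit in either direction over all chosen nuclei. Within them, the 20 genes of that list summed to 521 CPM in the Ccn3 group and 52.8 to 206 CPM in the other matrix groups, against 139 CPM in the other nuclei. Marker genes of other cell types gave 5 of 10 mural, 1 of 8 blood and 1 of 2 adipocyte genes at least 4 times higher, and none of the endothelial, macrophage, neuronal, satellite glia, Schwann, cartilage and bone or skeletal muscle genes. In the matrix groups 3 mural genes, 1 endothelial gene, 1 blood gene and 1 adipocyte gene were at least 4 times higher. The mural genes summed to 547 CPM in the chosen nuclei, 341 CPM in the matrix groups and 200.1 CPM in the other nuclei, and Acta2 had no UMI in the matrix groups, where a count of 0 allows 3.01 CPM. Schwann cell genes summed to 2064, 633 and 1718 CPM in the same order and satellite glia genes to 5288, 3405 and 5579.9 CPM.

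Neuronal RNA was present in the chosen nuclei at uneven levels. The summed level of 18 neuronal genes was 5396 CPM in the chosen nuclei and 15478 CPM in the other nuclei. Among the matrix groups it ranged from 1939 CPM in the Atp13a5 group to 7731 CPM in the Tbx18 group, against 25043 CPM in neuronal nuclei. Neurofilament and peptide genes stood near a ratio of 1, such as Nefl at 1.05 (0.928 to 1.18) and Calca at 1.14 (1.02 to 1.27), while the sodium channel gene Scn10a stood at 0.110 (0.0881 to 0.136). Their part in the values of other genes was not tested.

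Beyond the lists, the genes with the highest ratios included several regulators of matrix and growth. Nrk, a kinase gene, had a ratio of 40.0 (30.3 to 53.4), and Dchs2, a large cadherin, 28.8 (20.2 to 41.5). Ccbe1, a secreted protein needed for lymphatic growth, had a ratio of 23.5 (19.4 to 28.4), and Nox4, which makes reactive oxygen, 22.3 (19.4 to 25.8). Pax9, Ccn5, Cpz and Tmem45a also stood among the first 15, at ratios of 21.2 to 23.9, beside 3 genes known only by catalogue names. The 10 lowest ratios belonged to 9 such genes and to Kcng3, a potassium channel subunit, with 1 UMI in the chosen nuclei and 35.7 CPM in the other nuclei. The most abundant protein-coding genes were Trpm3, a cation channel, at 4468 CPM in the chosen nuclei and 2126 CPM in the other nuclei, then Gpc6 and Ebf1. Ebf1, a transcription factor also found in sensory neurons, stood at 3594 CPM against 2328 CPM, and Csmd1 and Apoe, also among the 10 most abundant genes, were not higher, at ratios of 0.392 (0.381 to 0.403) and 0.936 (0.909 to 0.964). In the matrix groups alone Csmd1 stood at 807 CPM, a ratio of 0.0904, and Apoe at 2102 CPM, a ratio of 0.595.

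Subsets were described by detection of short gene sets. Meningeal genes (Slc47a1, Ptgds or Dapl1) were detected in 213 of the 611 nuclei (34.9%, exact 95% interval 31.1% to 38.8%). Perineurial genes (Slc2a1 or Cldn1) were detected in 62 (10.1%, 7.87% to 12.8%), and outer fibroblast genes (Pi16 or Scara5) in 237 (38.8%, 34.9% to 42.8%). Of the 3 sets, exactly the meningeal one was detected in 107 nuclei, exactly the perineurial one in 40 and exactly the outer fibroblast one in 131. No gene of any set was detected in 218 nuclei, whose median depth was 1722 UMIs against 2303, 2101 and 2157 UMIs in the 3 exclusive subsets. After thinning to 500 UMIs the sets were detected in 106, 19 and 132 nuclei.

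The sets were also detected in other cell types. Meningeal genes were detected in 34.9% of the chosen nuclei, against 29.5% of neuronal and 17.8% of Sox10 nuclei, whose median depths were 10392 and 2053 UMIs. Perineurial genes were detected in 10.1% of the chosen nuclei, 10.3% of neuronal and 4.31% of Sox10 nuclei. Outer fibroblast genes were detected in 38.8% of the chosen nuclei, 6.46% of neuronal and 3.04% of Sox10 nuclei, but Scara5 is a rule gene and is held by 214 of the 237 nuclei. Pi16, which the rule did not use, was detected in 16.2% of the chosen, 4.49% of neuronal and 2.47% of Sox10 nuclei. Ptgds was detected in 18.8% of the chosen and 19.3% of the other nuclei, though its level was 1183 CPM in the chosen nuclei and 434 CPM in the other nuclei. After thinning to 500 UMIs it was detected in 8.84% of the chosen, 1.54% of neuronal and 5.26% of Sox10 nuclei. Slc47a1 was detected in 18.3% of the chosen and 2.80% of the other nuclei, and after thinning in 9.00% of the chosen, 0.317% of Sox10 and none of 712 neuronal nuclei, which allows a share of up to 0.421%. Dapl1 was detected in only 9 chosen nuclei. In the 107 Cdh5 nuclei, Slc2a1 was detected in 13.1% (113 CPM), against 3.60% (19.1 CPM) of the chosen nuclei. Cldn1 went the other way, with 3.74% against 7.86%. Cdh5 nuclei held Ptgds in 18.7% (849 CPM), Slc47a1 in 9.35% (334 CPM) and Pi16 in 1.87%. The longer perineurial list summed to 2230 CPM in Cdh5 and 1741 CPM in the chosen nuclei, and the meningeal list to 5981 and 6165 CPM.

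The sets overlapped in part. Meningeal and outer fibroblast genes met in 97 nuclei, 45.5% of the meningeal and 40.9% of the outer fibroblast nuclei. Perineurial genes met meningeal genes in 13 nuclei and outer fibroblast genes in 13, and all 3 sets met in 4. Pi16 and Scara5 shared 76 nuclei, 76.8% of the Pi16 and 35.5% of the Scara5 nuclei. Dkk2 and Scara5 shared 68, which is 76.4% of the Dkk2 nuclei. Slc47a1 and Ptgds shared 15, 13.4% of the Slc47a1 and 13.0% of the Ptgds nuclei. Over all chosen nuclei, Ptgds was detected in 18.8% and Slc47a1 in 18.3%.

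**Figure D3:**
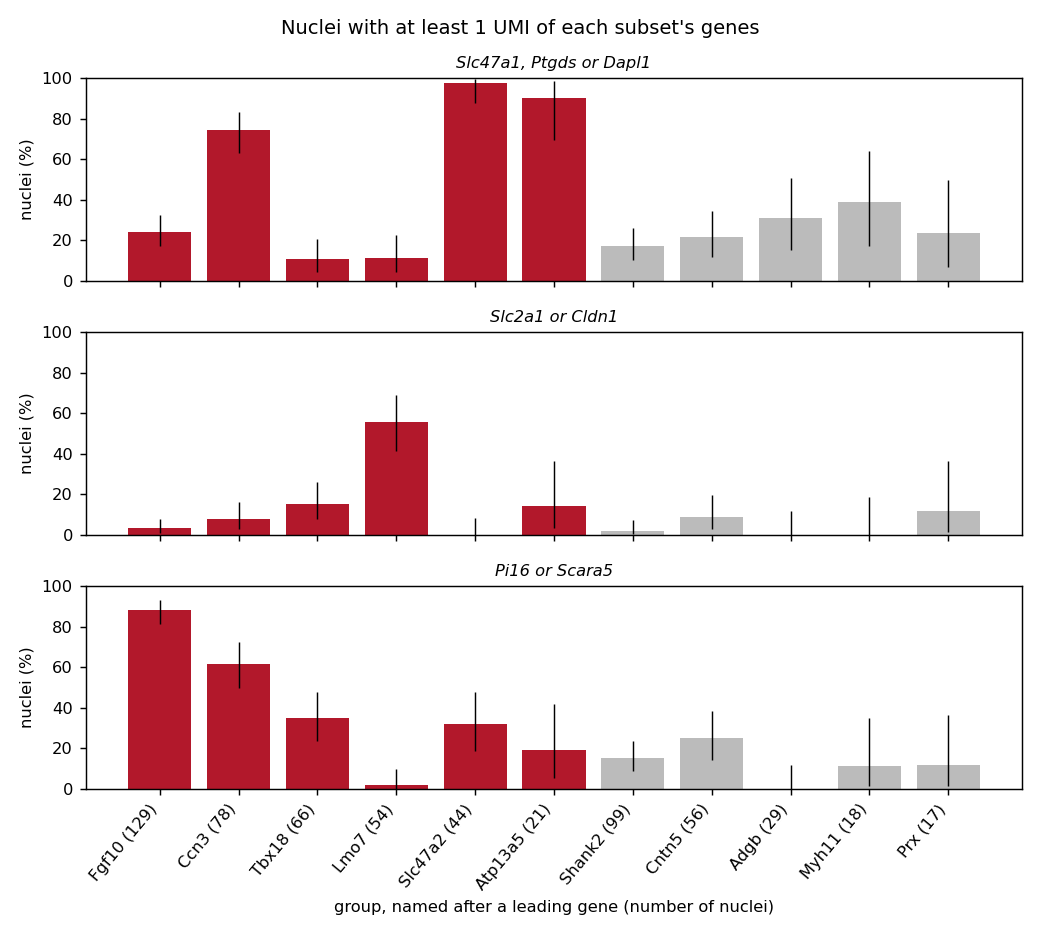
Share of nuclei (vertical axis, %) with at least 1 UMI of the meningeal (top), perineurial (middle) and outer fibroblast (bottom) genes in each of the 11 groups, with exact 95% intervals; the matrix groups are red and the 5 groups set aside for raised markers of another cell type are grey. Meningeal genes reach 97.7% in the Slc47a2 group, perineurial genes 55.6% in the Lmo7 group and outer fibroblast genes 88.4% in the Fgf10 group.

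Laid over the groups, the 3 sets were each detected most often in a different group, which is a description. None of their genes was used to form the groups, but Scara5 is a rule gene. It was detected in 111 of 129 nuclei of the Fgf10 group, and Pi16 in 53. The meningeal and outer fibroblast sets were both frequent in the Ccn3 group. Meningeal genes were detected in 43 of 44 nuclei of the Slc47a2 group, 19 of 21 of the Atp13a5 group and 58 of 78 of the Ccn3 group. In the Tbx18 and Lmo7 groups they were detected in 7 of 66 and 6 of 54. Perineurial genes were detected in 30 of 54 nuclei of the Lmo7 group and in none of 44 in the Slc47a2 group, which allows a share of up to 6.82%. Outer fibroblast genes were detected in 114 of 129 nuclei of the Fgf10 group and 48 of 78 of the Ccn3 group, and in 1 of 54 of the Lmo7 group. In the 5 groups set aside, the sets were detected in 22.4%, 4.11% and 15.1% of nuclei, against 41.8%, 13.5% and 52.0% in the matrix groups.

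The meningeal set covered 2 separate transcript profiles, seen in the heat map of the groups. Slc47a1 stood at 3109 CPM (2829 to 3409.7, 41 of 44 nuclei) in the Slc47a2 group and 732 CPM (50 of 78 nuclei) in the Ccn3 group, and had no UMI in the 21 nuclei of the Atp13a5 group, where a count of 0 allows 39.6 CPM. Ptgds stood at 20423 CPM (19418 to 21466, 19 of 21 nuclei) in the Atp13a5 group, against 406 CPM (10 of 44 nuclei) in the Slc47a2 and 98.5 CPM (13 of 78 nuclei) in the Ccn3 group. The 2 genes were thus high in different groups.

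**Figure D4:**
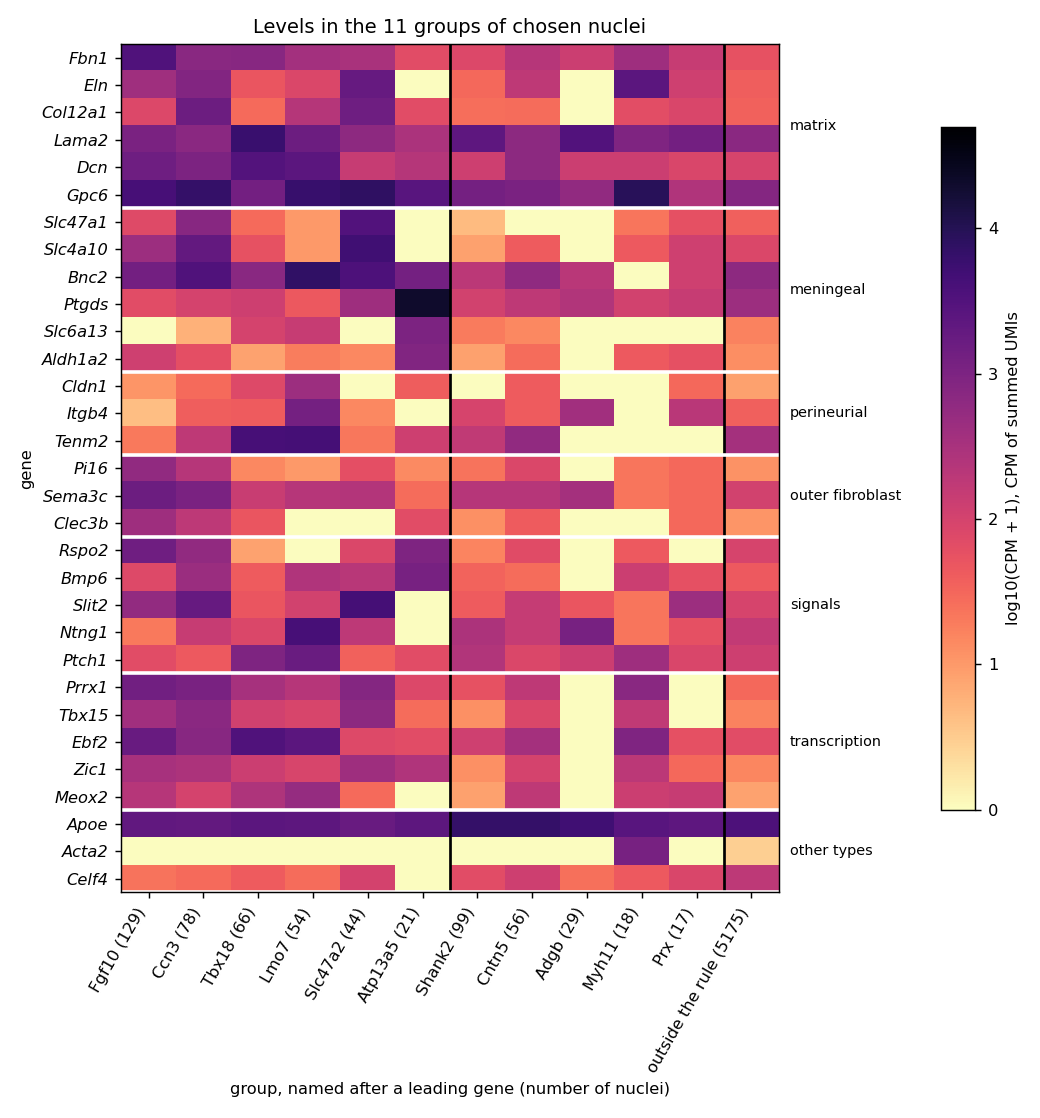
Levels of 31 genes in the 6 matrix groups (left of the first line), the 5 groups set aside (between the lines) and the nuclei outside the rule, as log10(CPM + 1) of summed UMIs; columns are groups with their number of nuclei, rows are genes in blocks by role. Slc47a1 and Slc4a10 are dark in the Slc47a2 column and blank in the Atp13a5 column, and Ptgds shows the reverse order.

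Transporters accompanied this division. Slc4a10 stood at 5022 CPM (4664 to 5399.6, 41 of 44 nuclei) in the Slc47a2 group, 1943 CPM (59 of 78 nuclei) in the Ccn3 group and at no UMI in the Atp13a5 group. Slc38a2, a neutral amino acid transporter, had 4210.0 CPM in the Slc47a2 group and 949.9 CPM in the Atp13a5 group. The Atp13a5 group instead held Slc6a13, a transporter of the transmitter GABA, at 1003 CPM (19 of 21 nuclei), and Slc13a4, a sulfate transporter, at 528 CPM (13 of 21 nuclei). Slc22a8, an organic anion transporter, was detected in 15 of 21 nuclei there (422 CPM) and in 1 of 44 of the Slc47a2 group. Slc7a11, the cystine and glutamate exchanger, stood at 1557 CPM in the Atp13a5 group and 13.8 CPM in the Slc47a2 group.

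Retinoid genes were concentrated in the Atp13a5 group. Aldh1a2, which makes retinoic acid, stood at 897 CPM (697 to 1137, 18 of 21 nuclei) there and at 114 CPM (17 of 129 nuclei) in the Fgf10 group, and at 17.9 CPM in the Lmo7 group. Cyp26b1, which degrades retinoic acid, had 449 CPM (6 of 21 nuclei) in the Atp13a5 group and no UMI in the Fgf10, Ccn3, Lmo7 and Slc47a2 groups. Rbp4, a retinol carrier, stood at 329.8 CPM (9 of 21 nuclei) in the Atp13a5 group.

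The perineurial set was centred on the Lmo7 group. Cldn1, a tight junction claudin, stood at 439 CPM (325 to 580.1, 24 of 54 nuclei) there, 76.5 CPM (10 of 66 nuclei) in the Tbx18 group and no UMI in the Slc47a2 group. Slc2a1, the glucose transporter of barrier cells, stood at 170.1 CPM (102 to 266, 13 of 54 nuclei) in the Lmo7 group and at most 6.49 CPM in the other matrix groups. Itgb4, the integrin beta 4 chain, was detected in 42 of 54 nuclei of the Lmo7 group (1218 CPM) and 4 of 66 of the Tbx18 group (41.8 CPM). Tenm2, a teneurin, did not separate them, with 4423 CPM in the Lmo7 and 4224 CPM in the Tbx18 group. Bnc2, a zinc finger gene, was highest in the Lmo7 group, at 7360.4 CPM (6866 to 7881, 53 of 54 nuclei), and Nr2f2, a nuclear receptor, stood at 1504 CPM (48 of 54 nuclei) there. The rule genes Scara5 and Dkk2 were detected in 0 of 54 and 1 of 54 of its nuclei, and 12 of its nuclei held any rule gene beyond the collagens.

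The outer fibroblast set was centred on the Fgf10 group. Scara5 stood at 1359.8 CPM (1233 to 1496, 111 of 129 nuclei) and Pi16 at 591 CPM (508 to 683, 53 of 129 nuclei) there. Clec3b, the plasminogen-binding protein tetranectin, stood at 419 CPM (68 of 129 nuclei), and Cd55, a complement regulator, at 299 CPM (47 of 129 nuclei). The Ccn3 group carried both sets, with Scara5 at 605 CPM (42 of 78 nuclei) beside Slc47a1 at 732 CPM (50 of 78 nuclei). The Tbx18 group had the most Pdgfra (1037 CPM, 47 of 66 nuclei) and Lum (376 CPM, 30 of 66 nuclei), little Pi16 (13.9 CPM, 2 of 66 nuclei) and the highest sum of genes listed for endoneurial fibroblasts, 4822 CPM, with Abca8a, a lipid transporter, at 1921 CPM against 34.4 CPM in the Slc47a2 group.

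Each exclusive subset was also set against the chosen nuclei without any of its set's genes (398, 549 and 374 nuclei), over 9904 genes with at least 20 UMIs in the chosen nuclei. In the meningeal subset 170 genes (1.72%) were at least 4 times higher and 260 (2.63%) at most 1/4. The counts were 121 (1.22%) and 297 (3.00%) in the perineurial and 125 (1.26%) and 303 (3.06%) in the outer fibroblast subset. Within the matrix groups alone, over 7994 genes, 201 (2.51%) and 320 (4.00%), 104 (1.30%) and 288 (3.60%), and 105 (1.31%) and 258 (3.23%) genes passed these limits in the 3 subsets in the same order. The meningeal subset was led by Slc47a2, a second extrusion transporter, Atp13a5, a transport ATPase, and Ranbp3l. Slc47a2 stood at 267 CPM in the subset and 1.15 CPM in the other chosen nuclei, a ratio of 232 (40.4 to 9299) that rests on 1 UMI outside the subset. Ranbp3l stood at 1634 CPM and 26.5 CPM, a ratio of 61.7 (40.6 to 98.4).

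The perineurial subset was led by Lmo7, at 564 CPM against 36.7 CPM in the other chosen nuclei, a ratio of 15.3 (10.2 to 23.2). Ntng1 stood at 3176 CPM against 270.1 CPM, and Col4a4, a basement membrane collagen, at 325 CPM against 34.4 CPM. Among nuclei with at least 3 rule genes the ratio was only 1.41 for Lmo7 and 3.14 for Ntng1. In the outer fibroblast subset Nox4 stood at 1007 CPM against 32.7 CPM, a ratio of 30.8 (20.8 to 47.5). Phex, a membrane peptidase gene, stood at 191 CPM against 4.84 CPM, and Pcolce2, an enhancer of procollagen processing, at 57.2 CPM against 2.42 CPM. Cpa3, a carboxypeptidase better known from mast cells, stood at 69.9 CPM against 1.21 CPM, a ratio of 57.7 that rests on 1 UMI outside the subset. Within the matrix groups it had no UMI in the nuclei compared with the subset. The ratio there was at least 11.6, a lower bound against a floor of 3 counts.

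The same rule, with a mitochondrial limit of 20% for whole cells, chose 2826, 2881, 1355, 7099 and 2557 nerve cells at P0, P7, P14, P28 and P60. Only Col1a2 and Col3a1 chose 86.2%, 54.3%, 66.8%, 28.4% and 14.4% of them, in order of age. The meningeal genes were detected in 34.9% of the ganglion nuclei, against 0.142%, 1.70%, 3.54%, 4.31% and 2.19% of these nerve cells. The perineurial genes were detected in 10.1% of the ganglion nuclei, against 10.3%, 22.1%, 40.4%, 45.2% and 22.8%. For the outer fibroblast genes the share was 38.8%, against 3.26%, 17.9%, 8.12%, 36.4% and 73.2%. Nuclei against whole cells, tissue and counting software differ together in this comparison and cannot be told apart, and the nerve cells were deeper, with a median of 4610.0 UMIs at P14.

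At the shared age of P14, 1616 of 11993 genes (13.5%) were at least 4 times higher in the chosen ganglion nuclei and 1365 (11.4%) at most 1/4 of the level in nerve cells. Under a scaling by the median of gene ratios the counts were 1902 and 1045. With the matrix groups alone they were 1397 (12.0%) and 1586 (13.6%) of 11633 genes, and the values below are of these 392 nuclei, as CPM over the 52081 gene identifiers that both tables share. No groups were set aside among the nerve cells, so the filter on marker lists acted on the ganglion side only. Its part in the values below was not tested. Meningeal genes gave 11 of 20 at least 4 times higher and 2 at most 1/4. Slc47a1 stood at 639.7 CPM in the ganglion nuclei and 0.635 CPM in the nerve cells. In the same order, Slc4a10 stood at 1294 and 0.318 CPM and Ptgds at 1682 and 10.5 CPM. Rspo2 and Zic1 had no UMI in the P14 nerve cells and stood at 649 and 271 CPM in the ganglion nuclei, at least 1362-fold and 569-fold higher against a floor of 3 counts.

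**Figure D5:**
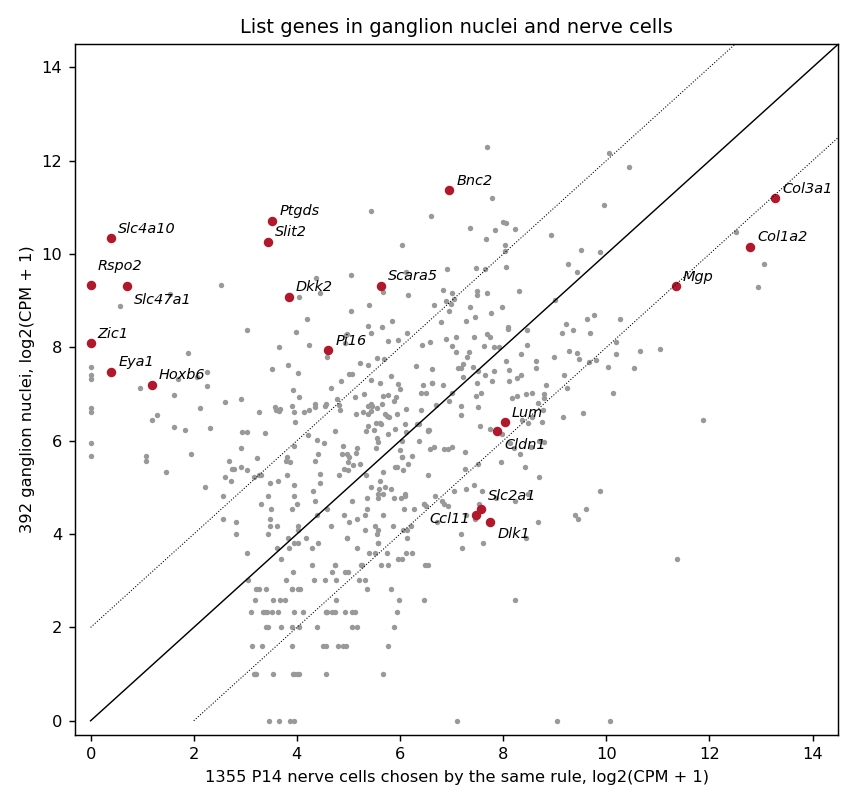
Levels of list genes in 392 ganglion nuclei of the matrix groups (vertical axis) and 1355 P14 nerve cells chosen by the same rule (horizontal axis), as log2(CPM + 1) of summed UMIs; the solid line marks equal levels and dotted lines 4-fold differences. Slc4a10, Slc47a1, Rspo2 and Zic1 stand near 0 in the nerve cells, and the fibrillar collagen genes Col1a2 and Col3a1 lie on the nerve side.

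Among the matrix lists, fibrillar and basement membrane genes had medians below that of all genes. Fibrillar matrix genes gave 2 of 29 at least 4 times higher in the ganglion nuclei and 6 at most 1/4, with a median log2 ratio of -0.56 against -0.13 over all genes. Basement membrane genes gave 1 of 15 higher and 7 lower (median log2 ratio -1.98), proteoglycan genes 2 of 13 higher and 3 lower (-0.06) and matrix enzyme genes 3 of 20 higher and 3 lower (-0.09). The rule genes Col1a2 and Col3a1 stood at 1138 and 2341 CPM in the ganglion nuclei and 7076 and 9858 CPM in the nerve cells. The rule genes Scara5 and Dkk2 were higher in the ganglion nuclei, with 638 and 541 CPM against 48.6 and 13.3 CPM. Perineurial genes gave 2 of 17 higher and 5 lower, Slc2a1 standing at 22.2 CPM in the ganglion nuclei and 189 CPM in the nerve cells.

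Hox genes gave 10 of 18 at least 4 times higher in the ganglion nuclei and 1 at most 1/4. Hoxb6 stood at 146 CPM in the ganglion nuclei and 1.27 CPM in the P14 nerve cells, a ratio of 115 (56.8 to 271), and Hoxb3 at 113 and 5.08 CPM. The more posterior Hoxc10 stood at 34.3 CPM in the ganglion nuclei and 48.0 CPM in the nerve cells, and Hoxc11 at 2.01 and 26.8 CPM. The endoneurial genes Dlk1, a Notch-related ligand, and Ccl11, a chemokine, stood at 18.1 and 20.1 CPM in the ganglion nuclei and 214 and 177 CPM in the nerve cells. Marker lists of other cell types moved with this comparison, and their part in it was not tested. The 18 neuronal genes summed to 5566 CPM in the ganglion nuclei and 1413 CPM in the nerve cells, with 6 of them at 0 in the nerve cells. The 12 mural genes summed to 343 CPM in the ganglion nuclei, with 3 of them at 0, and 7489 CPM in the nerve cells. In the same order, Schwann cell genes summed to 637 and 3107 CPM, endothelial genes to 176 and 342 CPM and macrophage genes to 66.5 and 232 CPM. Satellite glia genes went the other way, with 3422 and 2337 CPM. All of these lists were used to set groups aside in the ganglion, and none was used to remove nerve cells.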

How the data were processed

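Droplet libraries were counted by the authors with Cell Ranger, version 7.1.0 for the ganglion and 5.0.1 or 7.0.0 for the nerves, per the file headers, and the deposited values are raw UMI counts per gene and called barcode. Seurat and mm9 are named in the submitters' processing notes, and intron counting is not given in the sources used here. From the counts, nuclei were chosen by the rule (500 UMIs, 300 genes, 5% mitochondrial; 20% for nerve cells), and UMIs were summed per class and scaled to CPM. Ratios have exact conditional 95% intervals, levels exact Poisson and shares Clopper-Pearson intervals, which cover counting error only. The ganglion library held 5871 barcodes with totals as described in the report. Genes were set against a limit of 4-fold from 50 summed UMIs (20 for subsets), without a p-value, since each group has 1 library. A count of 0 was set to 3 counts for a bound.

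Chosen nuclei were grouped with the Leiden method of igraph 0.11.9 (1500 variable genes without the 691 list genes, 20 components, 15 neighbours, resolution 1.2). The resolution, the limit of 2 for raised marker lists and the use of 6 of 10 such lists were set after seeing the data. Doublets were not removed. Scrublet's own threshold, run in scanpy 1.11.5, called 1 nucleus and so did not work, and leaving out its top 8% is an alternative only. Thinning drew 500 UMIs per nucleus. The comparison with the nerve used the 52081 gene identifiers both tables share. Genes named beyond the lists were the 15 highest and 10 lowest ratios, the 10 highest levels and the 8 highest ratios of each subset. Members and lists were chosen with earlier results of these data known. The alternatives tried were stricter depth, mitochondrial and rule limits, other folds and minimum counts, median-of-ratios scaling, other subset limits and other grouping settings. The comparison step was tested on simulated counts.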

Additional observations from a re-analysis of the deposited data

How the results depend on the processing

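The number of chosen nuclei, 611, was 263 when 3 rule genes were required and 445 to 589 under the other alternatives. The 575 genes at least 4 times higher became 2310 with a minimum of 1 UMI, 322 with a minimum of 200 UMIs and 1802 at a fold of 2, and stayed at 487 to 752 otherwise. The 1084 genes at most 1/4 became 713 with the minimum of 200 UMIs and 2424 at the fold of 2, and were 1001 to 1492 otherwise. The meningeal, perineurial and outer fibroblast subsets held 106, 19 and 132 nuclei after thinning and 122, 20 and 154 when 2 UMIs were required, and with 3 rule genes the meningeal subset held 97 and the perineurial subset 25. The groups with none of 6 marker lists raised held 392 nuclei, and 242 at a limit of 1.5 times. With the lists of all 10 other cell types they held 65, choices made after seeing the data. At the coarser grouping, 71 nuclei of the Ccn3 group joined the 44 of the Slc47a2 group. Of 59 gene ratios run under 7 settings, none that was at least 4 or at most 1/4 at first crossed 1. Ratios between these limits, such as those of Apoe and Malat1, were not checked for a turn. Requiring 3 rule genes moved 29 of the 59 ratios beyond their interval, keeping only the matrix groups moved 18, and each other setting moved 2 to 14. Where 3 rule genes were required or no neuronal rule gene was allowed, the nuclei no longer chosen counted among the other nuclei. Against the nerve, median-of-ratios scaling shifted all log2 ratios by 0.25 and gave 1902 higher and 1045 lower genes, against 1616 and 1365. The causes were not tested. Depth limits the perineurial subset most, which held 62 nuclei. No paired analysis was possible because each group has 1 library.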
